A study of Mus musculus with 8 samples.

Results

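The genes described here are 44 members of the integrated stress response and the unfolded protein response, chosen by symbol: the factor ATF4 with its regulators and targets, and the sensors, chaperones and degradation factors of the endoplasmic reticulum (ER). They were found by Ensembl gene ID among 75078 deposited genes. RNA sequencing was done on αTC1-6 cells, a glucagon-producing line of mouse alpha cells. There were 4 libraries from cells transfected with a plasmid that overexpresses Yy1, numbered 45 to 48, and 4 from cells given an empty plasmid, numbered 31 to 34. Cells were transfected 24 h after plating in DMEM (11 mM, per the labels), no agent that provokes ER stress is named, and the time of harvest is not given in the sources used here. No label says that the 4 libraries of a group are separate cultures, so the spread behind the p-values may be technical. All 44 symbols had a row with counts. Ddit3 had 2 IDs, and the second (ENSMUSG00000116429) held 0 counts over all 8 libraries.

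Secretory cells fold large amounts of hormone in the ER. When unfolded protein builds up, the kinase PERK and the sensors IRE1 and ATF6 signal to the nucleus, and PERK, like GCN2 in amino acid shortage, phosphorylates the translation factor eIF2, which favours synthesis of ATF4. ATF4 then switches on amino acid enzymes and feedback genes, while ATF6 and spliced XBP1 switch on chaperones through the ER stress response element (ERSE). YY1 has been reported to bind near the ERSE of the Hspa5 (Grp78) promoter and to act there with ATF6 in stressed cells. That report links Hspa5 to the transfected factor.

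The elements through which these genes are known to be regulated are shown first, because genes that share an element are later compared. Promoter sequences were those of RefSeq (GRCm38.p6), an older build than that of the counts, and the 250 bases before the annotated start were searched on both strands. RefSeq promoters matched 41 of the 44 genes, all except Hyou1, Manf and Atf6. The ERSE, read as CCAAT and CCACG with 9 bases between them, was present in 8 of these 41 genes (19.5%), against 0.113% of all 32851 promoters in the table. Here and for the elements below, members were counted by gene and the background by promoter entry, so the shares differ in unit. The promoters of the ER chaperones Hspa5 and Hsp90b1 follow, with each ERSE in capitals; that nearer the start of Hsp90b1 lies on the opposite strand.
Hspa5, chr2:34771840-34772089, + strand: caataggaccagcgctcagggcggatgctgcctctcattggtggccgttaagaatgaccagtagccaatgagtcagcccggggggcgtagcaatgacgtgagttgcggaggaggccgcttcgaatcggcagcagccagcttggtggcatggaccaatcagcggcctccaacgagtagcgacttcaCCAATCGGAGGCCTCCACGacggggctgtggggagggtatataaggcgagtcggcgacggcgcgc
Hsp90b1, chr10:86705445-86705694, - strand: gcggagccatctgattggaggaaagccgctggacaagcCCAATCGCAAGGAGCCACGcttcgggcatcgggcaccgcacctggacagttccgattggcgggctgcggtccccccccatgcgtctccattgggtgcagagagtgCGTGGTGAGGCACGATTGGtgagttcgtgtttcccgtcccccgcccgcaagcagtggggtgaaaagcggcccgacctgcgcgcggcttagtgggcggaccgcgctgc
The exact match in Hspa5 lay 65 to 47 bases before the start, and Hsp90b1 held exact matches at 212 to 194 and at 107 to 89 bases. Here and in the sequences below, copies that differ from the letters searched were not marked. The other 6 genes with the element are given by their site alone, written on the strand of the motif and with its fixed letters in capitals, to show how the spacer between them varies.
Calr, chr8:84847075-84847093: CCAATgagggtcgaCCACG
Canx, chr11:50325800-50325818: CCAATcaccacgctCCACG
Creld2, chr15:88819520-88819538: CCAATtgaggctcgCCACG
Dnajc3, chr14:118937827-118937845: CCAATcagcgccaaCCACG
Pdia6, chr12:17266491-17266509: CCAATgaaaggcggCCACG
Syvn1, chr19:6046532-6046550: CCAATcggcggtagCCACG
Herpud1, an ER membrane protein of the degradation machinery, had the related element ERSE-II, read as ATTGG and CCACG with 1 base between them, which occurred in 0.0304% of promoters. The composite C/EBP-ATF element, a binding site of ATF4 searched as TGATGNAA, was present in 7 of the 41 genes (17.1%), against 3.45% of all promoters. These were Asns, Chac1, Fgf21, Nupr1, Pycr1, Vldlr and Herpud1. Nupr1 and Asns are shown, with the element in capitals, which in Nupr1 lies on the opposite strand.
Nupr1, chr7:126625471-126625720, - strand: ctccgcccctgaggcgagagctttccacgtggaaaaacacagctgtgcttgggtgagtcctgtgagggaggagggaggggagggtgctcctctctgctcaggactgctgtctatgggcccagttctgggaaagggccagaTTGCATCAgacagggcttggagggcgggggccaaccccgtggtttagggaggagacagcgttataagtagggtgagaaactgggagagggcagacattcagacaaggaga
Asns, chr6:7693210-7693459, - strand: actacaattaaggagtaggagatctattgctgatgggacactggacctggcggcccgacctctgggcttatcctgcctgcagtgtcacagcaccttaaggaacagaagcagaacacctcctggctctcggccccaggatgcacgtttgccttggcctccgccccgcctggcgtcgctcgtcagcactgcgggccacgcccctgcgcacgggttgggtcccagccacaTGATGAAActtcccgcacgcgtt
The letters ATGGCGGC, the core of a YY1 motif, occurred in 1.03% of all promoters and in 1 member, Psph. Sites of different motifs did not overlap in any member. A match describes the letters in this window only.

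Of the 44 genes, 42 passed the filter on low counts. The transfected gene itself checked the labels: Yy1 stood at 5233 ± 464 CPM (counts scaled to a library of 1000000) with the Yy1 plasmid and at 175 ± 5.33 CPM with the empty plasmid (SD, n = 4 each), in counts that do not separate the plasmid's transcript from the cell's own. Total counts ran from 29680177 to 33347445 in the Yy1 plasmid libraries and from 20679804 to 30570601 in the empty plasmid libraries, and empty plasmid 33 was the smallest. All 15 alpha cell markers had counts, and their summed level ran from 30083 to 30886 CPM with the Yy1 plasmid and from 29655 to 31107 CPM with the empty plasmid. Of 13 beta, delta and PP cell markers, Ins1, Ins2, Ucn3 and Ppy were at 0 in every library, and the sum ran from 107 to 117 CPM and from 110.5 to 116 CPM in the same order of groups. Acinar and duct markers summed to 26.4 to 30.1 CPM with the Yy1 plasmid and 24.1 to 27.3 CPM with the empty plasmid, with Prss1, Prss2, Ptf1a and Cftr at 0. Stromal, endothelial and immune markers summed to 5.25 to 7.02 CPM and to 4.12 to 7.42 CPM, again with the Yy1 plasmid named before the empty one.

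None of the stress genes passed the test between plasmids. By edgeR's quasi-likelihood test, 0 of the 42 tested members had an adjusted p under 0.05, where 0.515% of all 15916 tested genes did, 0.496% higher and 0.0188% lower with the Yy1 plasmid. At an unadjusted p under 0.05 there were 2 members, Nupr1 and Atf4, both lower with the Yy1 plasmid, or 4.76% of the members beside 5.42% of all tested genes in either direction and 2.19% lower. DESeq2 also called 0 members at an adjusted p under 0.05 and found 2 at the unadjusted level. The same 2 genes were the ones whose libraries did not overlap between the groups, beside 3.95% of all tested genes in either direction and 1.57% lower. Against both directions together, the members' share was near the background, and against the lower direction it rests on these 2 genes.

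The data bound how large a change could have been missed only if the libraries of a group are separate cultures, which no label states. For 38 of the 42 members the 95% interval of the log2 fold change lay within a 1.2-fold change in either direction, and for all 42 it lay within 1.5-fold. Over all tested genes these shares were 58.2% and 76%, and the first was 83.9% among genes with an average log2 CPM of at least 2, a level that all 42 members reached. The 4 members whose interval extended past the 1.2-fold limit were Nupr1 (-0.44 to -0.12), Phgdh (-0.33 to 0.0063), Ppp1r15a (-0.29 to 0.00035) and Cebpb (-0.32 to 0.30). The median log2 fold change was -0.017 over the members and -0.0025 over all tested genes.

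**Figure D1:**
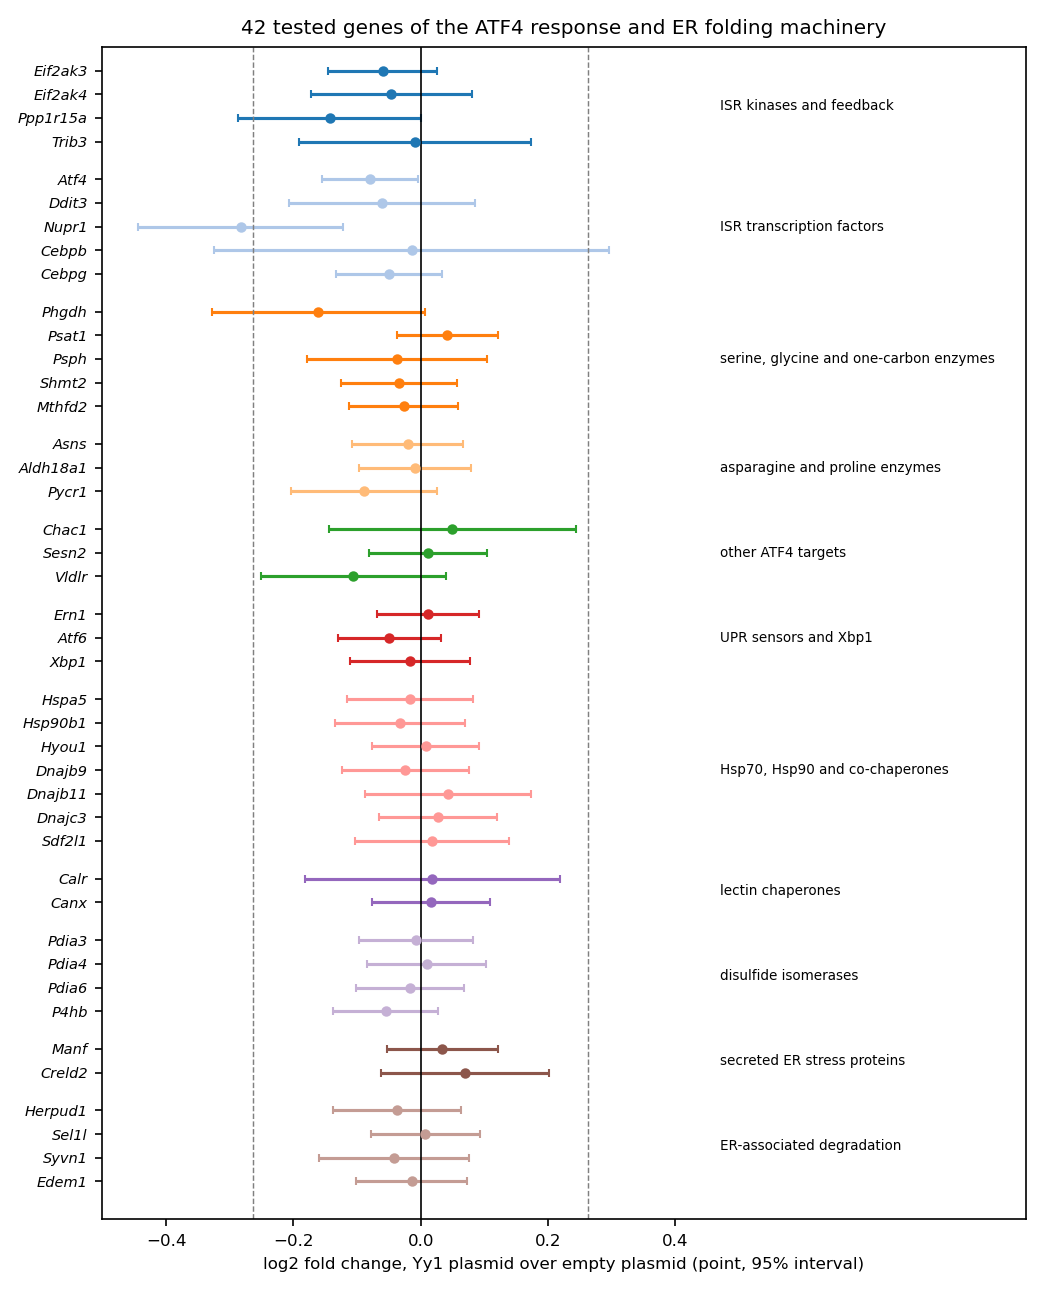
Log2 fold change of the Yy1 plasmid over the empty plasmid for the 42 tested genes, with 95% intervals from edgeR, grouped by role; dashed lines mark a 1.2-fold change either way. Nupr1 lies farthest from 0, at -0.28, and 38 of the 42 intervals stay inside the dashed lines.

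Members differed far more from each other than between plasmids. Per kb of transcript, with lengths averaged over the protein-coding transcripts of GENCODE M21, Hsp90b1 (the ER form of Hsp90) was the most abundant, at 459.5 ± 4.10 CPM per kb with the Yy1 plasmid and 469.9 ± 40.1 with the empty plasmid (SD, n = 4 each). P4hb, a protein disulfide isomerase, followed at 411 ± 7.12 CPM per kb with the Yy1 plasmid and 427 ± 15.3 with the empty plasmid. Next came Calr at 259 ± 16.2 and 256 ± 33.3 CPM per kb, and Hspa5 at 243 ± 7.90 and 246 ± 18.5, with the Yy1 plasmid before the empty plasmid, and these neighbours did not differ beyond their spread. Pdia3 stood at 216 ± 3.54 and 217 ± 13.5 CPM per kb, and Manf at 161 ± 6.16 and 157 ± 7.26, in that order of groups. Atf4 was the most abundant gene of the ATF4 arm, at 136 ± 2.16 CPM per kb with the Yy1 plasmid and 144 ± 1.63 with the empty plasmid. At the low end, Cebpb, a leucine zipper partner of ATF4, had 2.73 ± 0.571 and 2.78 ± 0.449 CPM per kb in the same order. The highest values belonged to ER chaperones and isomerases, and the lowest to Chac1, Eif2ak4, Trib3 and Cebpb. Not all chaperone genes stood high. The co-chaperone Dnajc3 had 10.8 ± 0.339 CPM per kb with the Yy1 plasmid and 10.6 ± 0.420 with the empty plasmid.

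**Figure D2:**
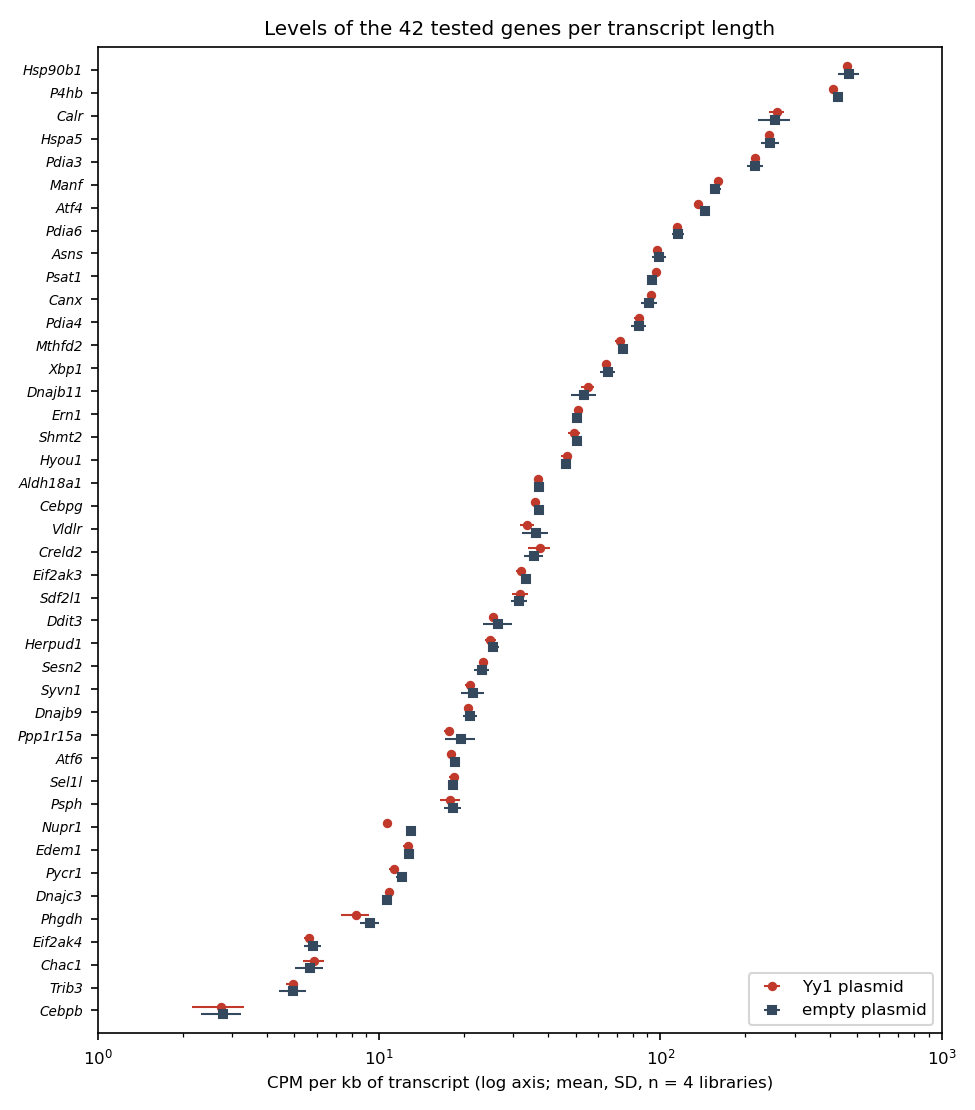
Mean level of each of the 42 tested genes in CPM per kb of transcript on a log axis, with SD over 4 libraries, for the Yy1 plasmid (circles) and the empty plasmid (squares). Levels run from 2.78 CPM per kb for Cebpb to 469.9 for Hsp90b1 with the empty plasmid, and the groups lie close together for each gene, with the widest relative gap at Nupr1.

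The secreted stress hormones Fgf21 and Gdf15 were the members that did not pass the filter. Fgf21, a metabolic hormone and ATF4 target, had 0, 2, 2 and 0 counts with the Yy1 plasmid and 0, 1, 0 and 2 with the empty plasmid. Gdf15, a stress hormone that lowers food intake, had 2, 3, 4 and 2 counts with the Yy1 plasmid and 2, 1, 1 and 0 with the empty plasmid. The limit of 3 counts that a 0 leaves corresponds to 0.0903 to 0.101 CPM in the Yy1 plasmid libraries and 0.0974 to 0.147 CPM in the empty plasmid libraries. All of these values but 1 lay at or under 3 counts, so no fold change is given.

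Among the transcription factors of the stress response all 5 log2 fold changes were negative, from -0.28 to -0.014. Nupr1 (ENSMUSG00000030717), a small stress-induced chromatin protein, stood at 8.89, 9.02, 8.94 and 8.56 CPM with the Yy1 plasmid and at 10.8, 11.2, 10.5 and 10.6 CPM with the empty plasmid. Every Yy1 plasmid library was below every empty plasmid library. The log2 fold change was -0.28 (SE 0.0777; unadjusted p = 0.00145, edgeR adjusted p = 0.189), the smallest p of the members. An exact two-sided permutation test on log2(CPM + 1) returned p = 0.0286, the lowest value that this number of libraries can give. Groups that do not overlap always return this value, so it only restates their separation.

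Atf4 (ENSMUSG00000042406), the central factor of the response, was also lower in every Yy1 plasmid library. It had 239, 232, 233 and 239 CPM with the Yy1 plasmid and 251, 249, 245 and 251 CPM with the empty plasmid. The log2 fold change was -0.079 (SE 0.0364, 95% interval -0.15 to -0.0040; edgeR adjusted p = 0.89). The exact permutation p was again 0.0286, as it must be for groups that do not overlap. The difference was thus small and steady, and it did not pass over all genes. ATF4 is controlled mainly at translation, which counts of messenger RNA do not measure.

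Ddit3 (ENSMUSG00000025408) encodes CHOP, a factor linked to cell death in prolonged ER stress. It had 22.0, 22.8, 21.9 and 23.7 CPM with the Yy1 plasmid and 25.7, 20.3, 26.0 and 22.5 CPM with the empty plasmid. The groups overlapped, and empty plasmid 32 held the lowest value of all. Its log2 fold change was -0.061 (SE 0.0707; edgeR adjusted p = 0.993), and it ran from -0.13 without empty plasmid 32 to -0.016 without empty plasmid 31. Cebpg, which dimerizes with ATF4, had -0.050 (SE 0.0402), and Cebpb had -0.014 (SE 0.150).

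The eIF2 kinases and the feedback genes did not pass the test either. Ppp1r15a (GADD34), which recruits a phosphatase to eIF2 and ends the response, had 46.2, 44.9, 43.1 and 47.3 CPM with the Yy1 plasmid and 50.1, 47.6, 58.9 and 44.6 CPM with the empty plasmid. The groups overlapped, and empty plasmid 33 was the highest. The log2 fold change was -0.14 (SE 0.0676; unadjusted p = 0.0505, edgeR adjusted p = 0.909), and it ran from -0.20 without empty plasmid 34 to -0.063 without empty plasmid 33. For Eif2ak3 (PERK) the log2 fold change was -0.060 (SE 0.0415), and for Eif2ak4 (GCN2) it was -0.046 (SE 0.0612). Trib3, a pseudokinase that restrains ATF4, had 9.39 to 10.5 CPM with the Yy1 plasmid and 9.19 to 11.7 CPM with the empty plasmid, a difference of -0.0086 on the log2 scale (SE 0.0881).

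**Figure D3:**
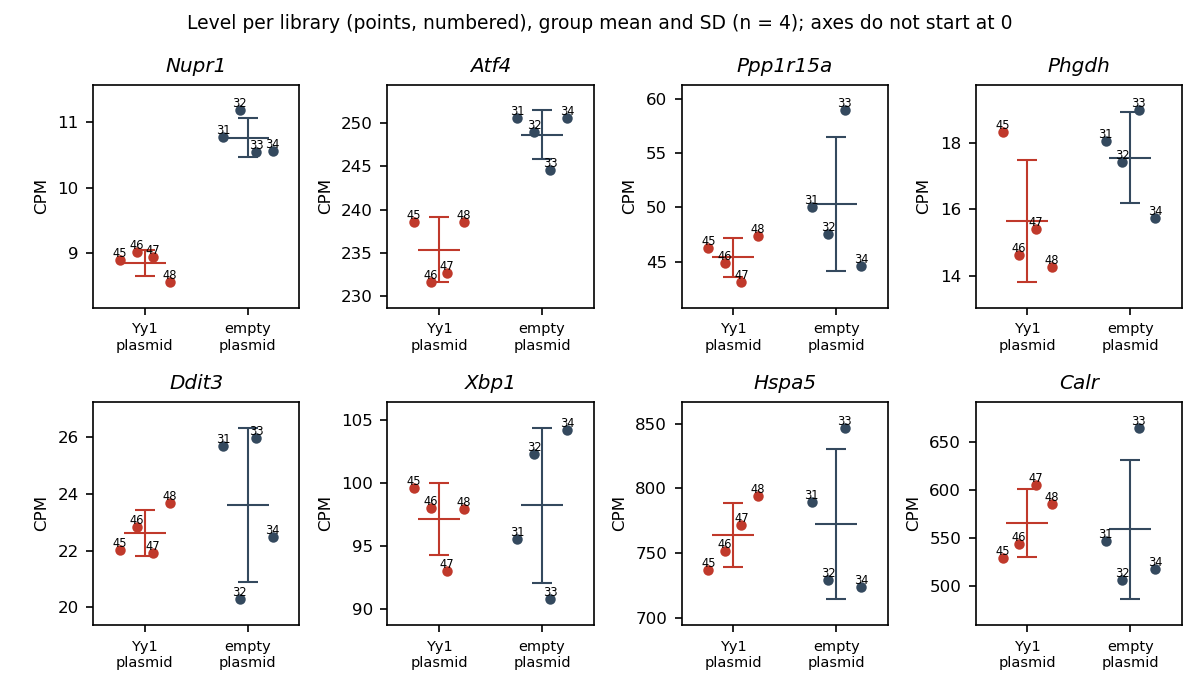
Level in CPM of 8 genes in each library (points with the sample number), with group mean and SD (n = 4), the Yy1 plasmid on the left and the empty plasmid on the right; the axes do not start at 0. The groups separate for Nupr1 and Atf4 and overlap for the others, and empty plasmid 33 is the highest library for Ppp1r15a, Phgdh, Ddit3, Hspa5 and Calr.

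Enzymes that make serine, glycine and one-carbon units are classic ATF4 targets, and none of the 5 passed the test here. Phgdh, the first enzyme of serine synthesis, had 18.3, 14.6, 15.4 and 14.3 CPM with the Yy1 plasmid and 18.0, 17.4, 19.0 and 15.7 CPM with the empty plasmid. In 3 of the 4 Yy1 plasmid libraries it was below every empty plasmid library, while Yy1 plasmid 45 lay among them. Its log2 fold change was -0.16 (SE 0.0806; edgeR adjusted p = 0.911), and it ran from -0.25 without Yy1 plasmid 45 to -0.12 without Yy1 plasmid 48. Phgdh has 12 annotated processed pseudogenes that match it at 95% identity or more over at least 200 bases, so its estimated count is uncertain. Psat1, the next enzyme of the pathway, had the opposite sign, at 0.042 (SE 0.0385). Psph, which completes serine synthesis, had -0.038 (SE 0.0682), and it overlaps Cct6a on the opposite strand over 26.1% of its exon bases. The mitochondrial enzymes Shmt2 and Mthfd2 had -0.034 (SE 0.0441) and -0.027 (SE 0.0415).

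Genes of asparagine and proline synthesis had 0 calls of 3. Asns (asparagine synthetase), whose promoter is printed above, had 196 ± 5.20 CPM with the Yy1 plasmid and 199 ± 10.9 CPM with the empty plasmid (SD, n = 4 each), a difference of -0.021 on the log2 scale (SE 0.0424; edgeR adjusted p = 0.997). Pycr1, which makes proline in mitochondria, had 27.0, 26.3, 28.6 and 26.2 CPM with the Yy1 plasmid and 29.0, 29.9, 27.0 and 28.9 CPM with the empty plasmid. The groups overlapped, and the log2 fold change was -0.089 (SE 0.0552, edgeR adjusted p = 0.953). Aldh18a1, upstream in the same route, had -0.0089 (SE 0.0421).

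Further ATF4 targets lay on both sides of 0. Vldlr, a lipoprotein receptor, had 174, 178, 156 and 167 CPM with the Yy1 plasmid and 166, 205, 166 and 189 CPM with the empty plasmid. The groups overlapped, and the log2 fold change was -0.11 (SE 0.0668; edgeR adjusted p = 0.956); it ran from -0.15 without empty plasmid 31 to -0.043 without empty plasmid 32. Chac1, which degrades glutathione, had 0.050 (SE 0.0934), and Sesn2, a nutrient sensor that restrains mTORC1, had 0.011 (SE 0.0447). Over the 20 tested genes of the ATF4 arm, 17 log2 fold changes were negative, where 51.4% of all tested genes were, with a median of -0.042. The summed level of all 22 genes of this arm ran from 1676 to 1702 CPM with the Yy1 plasmid and from 1705 to 1778 CPM with the empty plasmid. The nearest sums of the groups, 1702 and 1705 CPM, thus lay close together. Abundant genes weigh most in such a sum, among them Atf4 and Vldlr, lower by mean with the Yy1 plasmid, and Psat1, higher by mean. The number of negative values in this arm ran from 14 to 19 when single libraries were left out, and it is given as a description with no test.

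The sensors of the unfolded protein response and Xbp1 did not pass the test. Xbp1 (ENSMUSG00000020484), whose messenger is spliced by IRE1 into an active form that gene counts do not separate, had 99.6, 98.0, 93.0 and 97.9 CPM with the Yy1 plasmid and 95.6, 102, 90.7 and 104 CPM with the empty plasmid. Its groups overlapped, with both extremes in empty plasmid libraries, and the log2 fold change was -0.017 (SE 0.0455; edgeR adjusted p = 0.997). Atf6, the membrane-bound factor that binds the ERSE once cleaved, had 125, 131, 129.8 and 134 CPM with the Yy1 plasmid and 139, 131, 136 and 132 CPM with the empty plasmid, a difference of -0.049 on the log2 scale (SE 0.0392; edgeR adjusted p = 0.98). Ern1, which encodes IRE1, had 0.011 (SE 0.0388).

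The central chaperone did not differ between plasmids beyond its spread. Hspa5 (ENSMUSG00000026864), the ER Hsp70 known as BiP and the gene whose promoter has been linked to YY1, had 737, 752, 771 and 794 CPM with the Yy1 plasmid and 789.7, 729, 847 and 723 CPM with the empty plasmid. The Yy1 plasmid values all fell inside the range of the empty plasmid values. The log2 fold change was -0.016 (SE 0.0477, 95% interval -0.12 to 0.083; edgeR adjusted p = 0.997), beside a log2 fold change of 4.90 (SE 0.0619) for Yy1.

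Its partners gave values of the same kind. Among the 7 genes of the Hsp70, Hsp90 and co-chaperone group, log2 fold changes ran from -0.032 for Hsp90b1, which overlaps 1810014B01Rik on the opposite strand over 14.7% of its exon bases, to 0.043 for Dnajb11. Dnajb11, a co-chaperone that feeds substrates to BiP, had 116, 103, 115 and 112 CPM with the Yy1 plasmid and 113, 98.0, 121 and 101 CPM with the empty plasmid, which overlapped (SE 0.0610; edgeR adjusted p = 0.997). Hyou1, a nucleotide exchange factor for BiP, had 0.0076 (SE 0.0402), Dnajc3 had 0.027 (SE 0.0447), Dnajb9 had -0.024 (SE 0.0481) and Sdf2l1 had 0.018 (SE 0.0580); the last 3 work with BiP.

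The lectin chaperones, which hold glycoproteins during folding, did not pass the test either. Canx (calnexin) had 361, 364, 382 and 382 CPM with the Yy1 plasmid and 367, 344, 402 and 360.0 CPM with the empty plasmid, a difference of 0.016 on the log2 scale (SE 0.0446; edgeR adjusted p = 0.997). Calr (calreticulin) had 529, 544, 605 and 585 CPM with the Yy1 plasmid and 547, 507, 665 and 517 CPM with the empty plasmid, a difference of 0.018 on the log2 scale (SE 0.0879). In both genes the lowest and the highest value belonged to empty plasmid libraries 32 and 33.

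Protein disulfide isomerases, which form and shuffle disulfide bonds, had log2 fold changes from -0.055 to 0.0094. P4hb, the archetype of the family, had 762, 731, 744 and 749.6 CPM with the Yy1 plasmid and 761, 809, 787 and 747 CPM with the empty plasmid. These groups overlapped (log2 fold change -0.055, SE 0.0395; edgeR adjusted p = 0.974). Pdia3, which works with calnexin and calreticulin, had -0.0072 (SE 0.0434), Pdia4 had 0.0094 (SE 0.0451) and Pdia6 had -0.017 (SE 0.0409).

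Secreted ER proteins and degradation factors complete the ER arm. Creld2, an ER stress-induced protein with the ERSE, had 57.4, 49.9, 48.0 and 48.1 CPM with the Yy1 plasmid and 51.3, 43.5, 51.5 and 47.7 CPM with the empty plasmid. Yy1 plasmid 45 was the highest, and the groups overlapped (log2 fold change 0.070, SE 0.0630; edgeR adjusted p = 0.986), the most positive value of the tested members. It was 0.0044 without Yy1 plasmid 45 and 0.021 without empty plasmid 32, so its size rests on single libraries. Manf, a secreted factor that protects stressed cells, had 0.034 (SE 0.0420). Herpud1 had 45.1, 47.0, 47.7 and 50.5 CPM with the Yy1 plasmid and 50.8, 50.3, 47.4 and 46.6 CPM with the empty plasmid, which overlapped (log2 fold change -0.037, SE 0.0484; edgeR adjusted p = 0.993). Syvn1, the ubiquitin ligase of ER-associated degradation, had -0.042 (SE 0.0565), its adaptor Sel1l 0.0074 (SE 0.0415) and Edem1, which delivers misfolded glycoproteins, -0.014 (SE 0.0420). Over the 22 genes of the ER arm, 11 log2 fold changes were positive and 11 negative, all 22 intervals lay within a 1.2-fold change, and the summed level was 6205 ± 109 CPM with the Yy1 plasmid and 6261 ± 324 CPM with the empty plasmid (SD, n = 4 each).

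Grouping genes by promoter element gave no call either. The 8 members with the ERSE had log2 fold changes from -0.042 to 0.070, with a median of -0.00025. For these sets genes were matched to the counts by symbol, so genes that GENCODE M21 lists under an older symbol were missed. The 18 tested genes matched with the ERSE, members included, had a median of -0.019. Of them, 0 reached an adjusted p under 0.05 by edgeR or an unadjusted p under 0.05. Ero1b, which also has the ERSE, was missed in this way and had -0.034 (SE 0.0523). The 6 tested members with the C/EBP-ATF element had a median of -0.063, from -0.28 for Nupr1 to 0.050 for Chac1, and the 252 tested genes with it had a median of -0.0057, with 8 at an unadjusted p under 0.05. Of the 248 tested genes with the YY1 motif, 5 were at that level, and their median was -0.011. Of the 8 tested genes with ERSE-II, 3 were, beside 5.42% of all tested genes, and all 3 were outside the 44 genes and lower with the Yy1 plasmid: Rbm39 at -0.11 (SE 0.0392), Lrif1 at -0.16 (SE 0.0533) and Gm46430 at -0.16 (SE 0.0604). These 3 are named after their values were seen, and 0 of the matched genes with any of the 4 elements had an adjusted p under 0.05 by edgeR.

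Variation between libraries of a single group was larger than the difference between plasmids for the ER chaperones. Of the 13 chaperones and isomerases, 7 had their highest value in empty plasmid 33 (Hspa5, Hsp90b1, Dnajb11, Calr, Canx, Pdia3 and Pdia4), beside 22.4% of all genes with an average log2 CPM of at least 2. In empty plasmid 32, 7 of the 13 had their lowest value, beside 12.4% of those genes, and 6 genes were in both sets. The median deviation from the mean over 8 libraries, in log2(CPM + 0.5), ran from -0.041 to 0.036 in the Yy1 plasmid libraries. In the empty plasmid libraries it ran from -0.074 in number 32 to 0.12 in number 33. The ATF4 arm did not share this order: its median deviation was 0.016 in empty plasmid 33 and 0.053 in empty plasmid 32. Xbp1, Manf, Syvn1, Dnajb9 and Dnajc3 had their lowest value in empty plasmid 33. The median SD of the 13 genes on the log2 scale was 0.045 with the Yy1 plasmid and 0.089 with the empty plasmid, and the second was 0.060 without empty plasmid 33. Over all genes with an average log2 CPM of at least 2 the median SD was also smaller with the Yy1 plasmid, at 0.061 against 0.081 with the empty plasmid, and the second was 0.066 without empty plasmid 33. Empty plasmid 33 was also the shallowest library, with 20679804 counts, and the part of depth in this pattern was not tested. Without it, the log2 fold change of Hspa5 was 0.031 (SE 0.0382; edgeR adjusted p = 0.954).

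**Figure D4:**
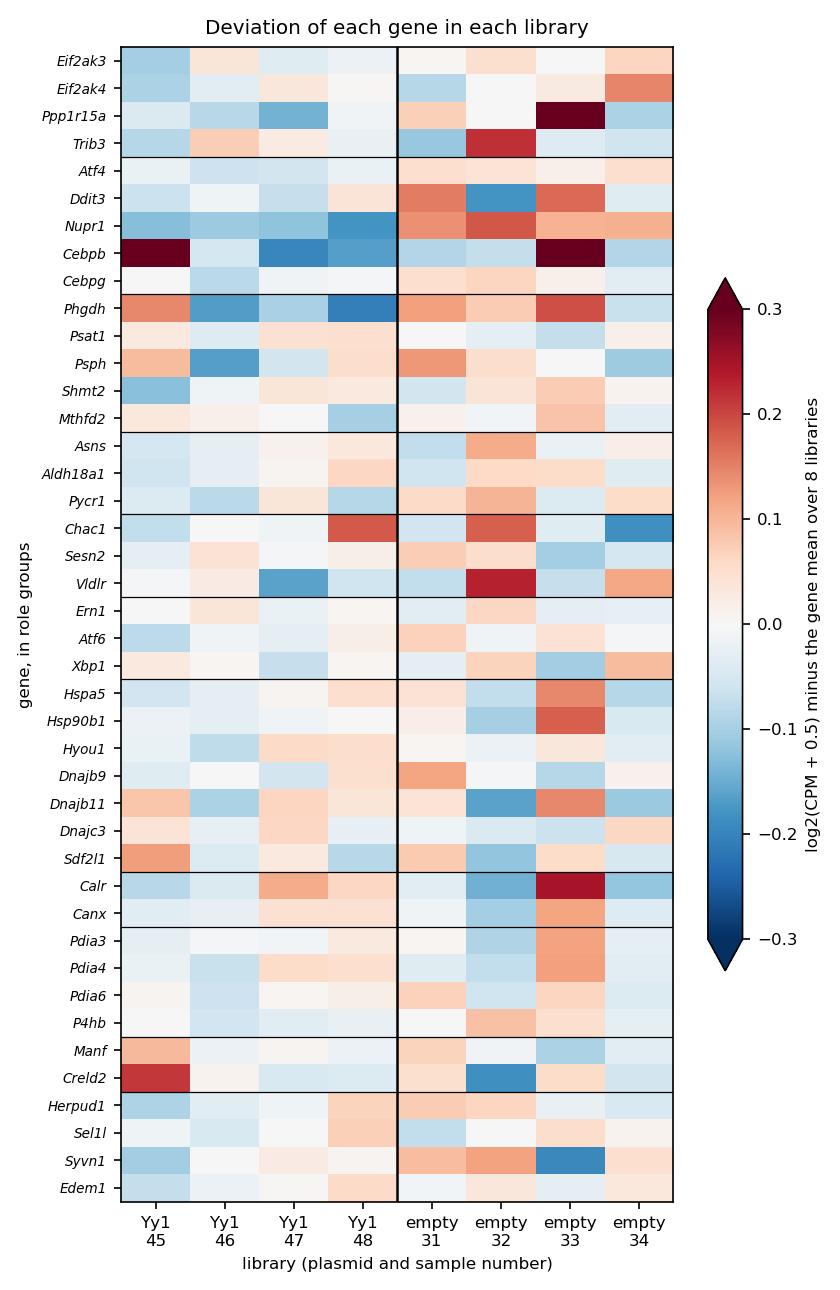
Deviation of each tested gene in each library, as log2(CPM + 0.5) minus the gene's mean over 8 libraries, with Yy1 plasmid libraries on the left, empty plasmid libraries on the right and role groups divided by lines; colours saturate at the ends of the scale. Nupr1 is low in all 4 Yy1 plasmid libraries, and Hspa5, Hsp90b1, Calr, Canx, Pdia3 and Pdia4 are high in empty plasmid 33.

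Other genes of the same pathways gave no call either. Of 161 listed genes outside the 44, 156 were tested by edgeR and 0 had an adjusted p under 0.05; DESeq2 also called 0. At an unadjusted p under 0.05 there were 2 of the 156 genes, both lower, beside 5.42% of all tested genes. Libraries did not overlap for 3 of the 156, beside 3.95% of all tested genes. Of these 3, Eif2b2 and Ssr3 were lower and Ubxn8 was higher (0.065, SE 0.0585). Over the 156 genes the median log2 fold change was -0.0061. Eif2b2, a subunit of the exchange factor that phosphorylated eIF2 inhibits, had 30.5, 28.5, 28.9 and 29.9 CPM with the Yy1 plasmid and 32.6, 33.2, 30.7 and 30.7 CPM with the empty plasmid. Its libraries did not overlap, and the log2 fold change was -0.11 (SE 0.0526; edgeR adjusted p = 0.909). The list of kinases, eIF2 and eIF2B subunits held 11 negative and 3 positive values, where 51.4% of all tested genes were negative. In it Eif2b4 stood at -0.074 and Eif2s2 at -0.048.

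The second gene was Crebrf, a regulator of the unfolded protein response, in the list of other ATF4-linked genes, at -0.16 on the log2 scale (SE 0.0693; edgeR adjusted p = 0.845). In that list of 37 tested genes, Slc1a4, a neutral amino acid transporter, had 0.11 (SE 0.0537), and Stc2, a secreted stress glycoprotein at 0.567 ± 0.135 CPM with the Yy1 plasmid and 0.321 ± 0.157 CPM with the empty plasmid (SD, n = 4 each), had 0.78 (SE 0.377). Other folding genes had 0 of 33 at an unadjusted p under 0.05, with a median of 0.0054, Sil1 at 0.12 (SE 0.0677), Hspa13 at 0.063 (SE 0.0417) and Cnpy2 at -0.056 (SE 0.0494). Other degradation genes had 0 of 25, with a median of 0.029, Ngly1 at 0.13 (SE 0.0759), Derl3 at -0.31 (SE 0.195) and Ube2g2 at -0.087 (SE 0.0567). Translocation genes had 0 of 31, with a median of -0.0014, Srp54b at -0.086 (SE 0.0549), Srprb at -0.059 (SE 0.0461) and Ssr3 at -0.046 (SE 0.0363). Ssr3, a subunit of the translocon-associated complex, had 361, 361, 358 and 356 CPM with the Yy1 plasmid and 379, 364, 367 and 371 CPM with the empty plasmid, which did not overlap. Cytosolic heat shock genes had 0 of 16 at that level, with a median of -0.041. Of their 16 values 14 were negative, beside 51.4% of all tested genes. Positive values made up 18 of 25 for other degradation genes and 20 of 33 for other folding genes. They made up 15 of 31 for translocation genes and 14 of 37 for other ATF4-linked genes. Among the heat shock genes, Hsp90aa1 had -0.087 (SE 0.0434) and the chaperone Hsph1 had -0.087 (SE 0.0488). The inducible Hspa1a, a near copy of Hspa1b, had 0.27 (SE 0.160).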

How the data were processed

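The authors deposited estimated counts per Ensembl gene, an expected count not scaled for depth, in 8 columns that the labels' descriptions tie to the samples. Per the labels' protocols, poly(A) RNA was made into libraries by a strand-specific kit. Tools named by the submitters' processing notes, without versions, are fastp and kallisto, and the build is GRCm39; the summing to genes and the use of strand in counting are not given in the sources used here. No column was left unused. Counts were rounded to whole numbers. Symbols came from GENCODE M21, with older symbols for 16 listed genes.

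The filter was filterByExpr, with 10 as the minimum count and 15 as the minimum total, and TMM gave the scaling. The robust quasi-likelihood test of edgeR 4.0.16 was run in R 4.3.3, and p-values were adjusted by Benjamini-Hochberg over 15916 genes. The standard error was the log2 fold change divided by the square root of F, and 95% intervals used the fit's degrees of freedom. CPM used TMM-scaled library sizes. Limits from counts of 0 cover counting error only. Single genes were also compared by exact permutation over 70 arrangements.

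Replicate pairs differed by more than sampling noise (chi-square per degree of freedom from 2.92 to 13.9), so none was counted as a copy. Because the use of strand in counting is not given, reads from opposite-strand genes may not have been told apart for 12 members. Of these, 3 (Psph, Hsp90b1 and Eif2ak3) overlapped over at least 10% of their exon bases. Genes on the same strand overlapped 3 members (Hsp90b1, Manf and Pdia4), 0 of them over at least 10%.

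The members, role groups and lists were chosen with earlier results of these data known. Named in full were Yy1, Atf4, Ddit3, Xbp1, Hspa5, members with an unadjusted p under 0.05 and the member with the smallest p in each role group, and from each further list the 3 genes with the smallest p. Calr was added to the genes given by library after its values were seen. Alternatives were RLE scaling, upper-quartile scaling, library size alone, no filter, a filter of 1 CPM in 4 libraries, DESeq2 1.42.0, limma-voom (limma 3.58.1), scaling without Yy1, a fit with 1 surrogate variable (sva 3.50.0), and each library left out.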

Additional observations from a re-analysis of the deposited data

Results flagged for a closer look

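Of 84 sets of 4 libraries, 1 for each of the 42 tested members in each group, 4 held a value far from the other 3, and chance gives about 1 in 20. Cebpb stood at 5.20 CPM in empty plasmid 33, above 3.83 to 3.88 CPM in the other empty plasmid libraries. Ern1 stood at 136 CPM in empty plasmid 32, above 127 to 128 CPM in the others. Cebpg stood at 96.6 CPM in Yy1 plasmid 46, below 102 CPM in the other Yy1 plasmid libraries. Pdia6 stood at 239.6 CPM in Yy1 plasmid 46, below 251 to 253 CPM in the others.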

How the results depend on the processing

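The counts of called members and of called other pathway genes stayed at 0 under all 17 alternatives. The number of members with an unadjusted p under 0.05 was 2, and it was 1 with upper-quartile scaling, 3 with library size alone, 4 with no filter, 4 with 1 surrogate variable and 1 to 4 when single libraries were left out. The number of members with an interval within a 1.2-fold change ran from 36 to 39. Over all genes, 82 were called, against 174 with no filter and 54 with a filter of 1 CPM in 4 libraries, and 65 to 87 without single libraries. Of 576 values of 34 named genes under the alternatives, 569 kept their direction and their side of the threshold, and 7 changed sign. The log2 fold change of Hspa5 was 0.0022 with 1 surrogate variable and ran from -0.047 to 0.031 without single libraries. Without single libraries, Xbp1 ran from -0.052 to 0.012, Canx from -0.015 to 0.060 and Dnajb11 from -0.0028 to 0.098. The cause of these changes was not tested. Nupr1 ran from -0.29 to -0.26 over all alternatives, with an adjusted p from 0.152 to 0.495, and Atf4 from -0.088 to -0.072. No paired analysis was run because the labels give no pairing between the groups. The sample numbers form separate runs, 31 to 34 for the empty plasmid and 45 to 48 for the Yy1 plasmid. Any effect that goes with this numbering cannot be told apart from the plasmid.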
